A study of Mus musculus with 7 samples.

Results

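The nuclear-encoded subunits and assembly factors of the mitochondrial respiratory chain were examined in RNA-seq of aged mouse retinal pigment epithelium (RPE), a sheet of pigmented cells that supports the photoreceptors. Members were chosen by gene symbol alone: every row of the count table whose symbol begins with Nduf, Uqcr, Cox4 to Cox8 or Atp5, together with Sdha, Sdhb, Sdhc and Sdhd. This gave 96 rows (95 symbols, since Atp5o stands on a pair of rows) of 21861, and they were split by complex: 47 for complex I, 4 for complex II, 8 for complex III, 19 for complex IV and 18 for complex V. Of the 47 complex I genes, 7 encode core catalytic subunits and 8 encode factors named Ndufaf that help assemble the complex. The other 32 were counted as accessory subunits by symbol. The split follows the symbols, so Ndufa4, now regarded as a subunit of complex IV, stands with complex I.

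The study compared RPE of aged mice taken 12 weeks after treatment with a vector made from adeno-associated virus (AAV), with either GFP as its cargo, the vector control (n = 3 libraries), or GSTA4, a glutathione transferase that conjugates the reactive aldehydes left by lipid peroxidation (n = 4). The strain, age, sex, promoter of the vectors and number of animals in each library are not given in the sources used here. Both groups received a vector, so the comparison is of one transgene against another in old tissue, with no uninjected or young group. Nothing says that the libraries came from separate animals, so p-values measure only the spread between these libraries, which may in part be technical.

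The respiratory chain passes electrons from NADH (complex I) and succinate (complex II) through ubiquinone and complex III to cytochrome c and on to oxygen at complex IV, and complexes I, III and IV pump protons whose return drives ATP synthesis in complex V. A few hydrophobic subunits are encoded in mitochondrial DNA, and all other subunits, including every subunit of complex II, are encoded in the nucleus. The RPE relies heavily on its mitochondria, spares glucose for the photoreceptors, and is a tissue in which mitochondrial decline with age has often been described.

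Library totals were 15329181 to 28998964 counts, and the transgene rows were read first. The human GSTA4 row had 3, 1 and 1 counts in the control libraries, listed by replicate number here and below, and 4209, 5239, 45 and 1184 counts in those given GSTA4, so the library labelled AAV-GSTA4 replicate 3 held little of its transgene. The GFP row had 99, 3970 and 2361 counts in AAV-GFP and 7 to 163 in AAV-GSTA4, so the library labelled AAV-GFP replicate 1 overlapped the other group. AAV-GFP replicate 3 stood apart, with a mean correlation of 0.838 to the other libraries against 0.910 to 0.926 for the other 6. Defining RPE markers were present in every library, at a summed 23760 to 112400 CPM over 16 genes. CPM here is the count scaled to a common library size with trimmed-mean factors (TMM). Results were therefore also computed without AAV-GFP replicate 3.

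No respiratory chain gene passed the test. Of the 93 members expressed enough to be tested, 0 reached an adjusted p under 0.05 in edgeR's quasi-likelihood test, and over all genes 0 of 15075 did (0%). Without adjustment, 0 members were higher and 1 was lower at p under 0.05 (1.08% of members), where 5.27% of all genes were higher and 6.63% lower. DESeq2, run as an alternative, called 202 genes (2.14% of the 9423 given an adjusted p) and 0 members. In direction the members divided evenly, 46 higher and 47 lower in AAV-GSTA4, and 49.5% higher compares with 44.6% of all genes. Their median log2 fold change was -0.01, against -0.07 for all genes. In bulk tissue, fewer cells of a type and less RNA per cell cannot be told apart.

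The members' summed level was 28740, 26770 and 14050 CPM with AAV-GFP and 20170, 21270, 27240 and 26950 CPM with AAV-GSTA4. The groups overlapped, with the highest and the lowest library both in AAV-GFP, and the groups averaged 23190 CPM (SD 7976, n = 3) and 23910 CPM (SD 3710, n = 4). As a share of each library's own total, with no scaling between libraries, members took 2.84%, 2.80% and 1.91% of counts in AAV-GFP. In AAV-GSTA4 they took 1.95%, 1.92%, 2.36% and 2.52%. The 95% Wilson intervals lay within 0.00699 percentage points to either side. These shares averaged 2.52% (SD 0.528, n = 3) with AAV-GFP and 2.19% (SD 0.300, n = 4) with AAV-GSTA4, the reverse order to the scaled sums. Y-linked genes were counted in AAV-GFP replicate 1 and AAV-GSTA4 replicates 3 and 4 and were near 0 in the other libraries. Within the first set, the summed member level was 28740 CPM in the AAV-GFP library and 27240 and 26950 CPM in AAV-GSTA4. Within the second it was 26770 and 14050 CPM in AAV-GFP and 20170 and 21270 CPM in AAV-GSTA4, so the AAV-GSTA4 values lay between those of the AAV-GFP libraries.

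**Figure D1:**
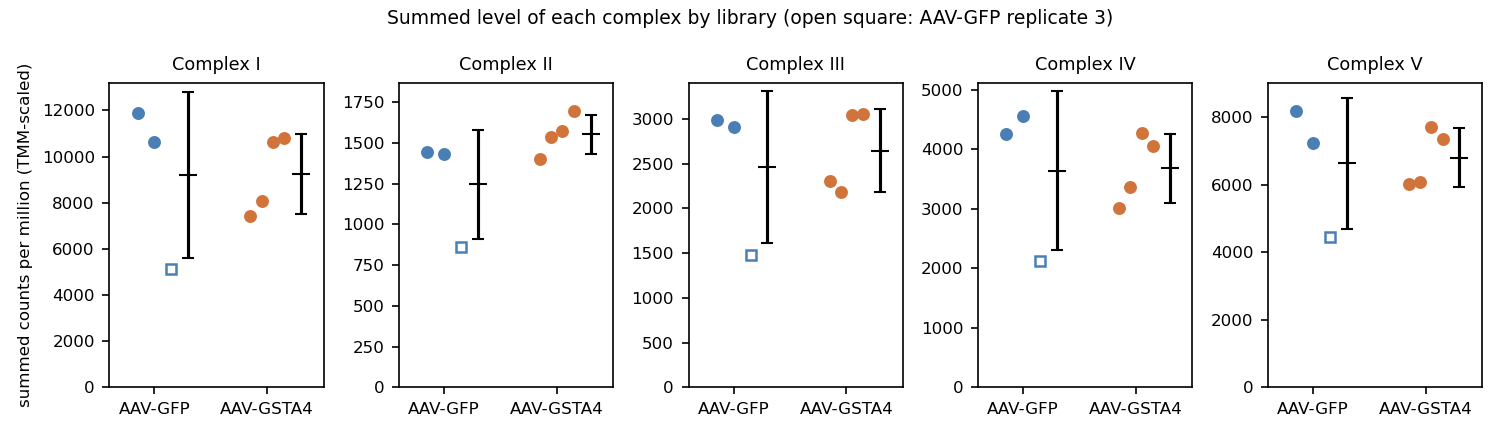
Summed TMM-scaled CPM of the members of each complex (vertical axis, from 0) in the 3 AAV-GFP and 4 AAV-GSTA4 libraries, with mean and SD as black marks. AAV-GFP replicate 3 (open square) is the lowest library for every complex on this TMM-scaled axis. Complex II has an AAV-GSTA4 mean of 1553 and an AAV-GFP mean of 1246.

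Complex by complex, the median log2 fold change was 0.02 for complex I, 0.30 for II, 0.19 for III, -0.12 for IV and -0.02 for V. Complex II was the one complex with all its members on one side, 4 of 4 higher, although Sdhc and Sdhd were at -0.01 and -0.03 with library totals. Scaling by library totals in place of TMM moved the median of all genes from -0.07 to -0.37 and that of the members from -0.01 to -0.24, so directions below are relative to TMM scaling. The groups did not overlap for 5 members (5.38%, where 12.0% of all genes did not overlap, 6.44% higher and 5.61% lower): Ndufaf5 and Atp5g2 were lower, and Ndufaf7, Sdha and Atp5a1 higher, in every AAV-GSTA4 library.

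Among the complex I assembly factors, a pair of enzymes lay on opposite sides. Ndufaf5 (chr2:140170649-140203689, GRCm38), which hydroxylates an arginine of the core subunit Ndufs7, was at 29.8, 33.98 and 29.2 CPM in AAV-GFP and at 19.2, 20.2, 18.2 and 15.9 CPM in AAV-GSTA4. Its log2 fold change of -0.76 ± 0.21 (SE) had the smallest p of any member, 0.00505 unadjusted and 0.363 adjusted in edgeR's quasi-likelihood test. AAV-GFP replicate 3 stood close to replicate 1 here, and without it the log2 fold change was -0.80. Ndufaf7 (chr17:78937136-78948052), an arginine methyltransferase, was at 46.2, 47.3 and 36.5 CPM in AAV-GFP and at 49.7, 56.3, 64.8 and 67.0 CPM in AAV-GSTA4. In edgeR's test the log2 fold change of Ndufaf7 was 0.46 ± 0.21 (SE) at an adjusted p of 0.426.

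The core subunits named here stayed within the spread of replicates. Ndufs7, which carries an iron-sulfur cluster, averaged 157 CPM with AAV-GFP (SD 14.9, n = 3) and 167 CPM with AAV-GSTA4 (SD 19.6, n = 4). Ndufv1, the subunit that binds NADH, was the steadiest of those named, at 197, 194 and 214 CPM against 191, 178, 213 and 218 CPM. Over the 7 core subunits 4 were higher and 3 lower, with a median log2 fold change of 0.02 and a value of 0.20 for Ndufs3, which lies in the arm that reaches into the matrix. Without AAV-GFP replicate 3, 3 were higher and 4 lower, the median was -0.16 and Ndufs3 was at 0.10.

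Of the 32 accessory subunits, 18 were higher and 14 lower, with a median of 0.02. Without AAV-GFP replicate 3, 2 were higher and 30 lower, with a median of -0.24. Ndufa4 had the highest level per transcript length of all members, a mean of 1996 CPM per kilobase, and was at 1321, 1100 and 422 CPM in AAV-GFP and at 682, 699, 1091 and 999 CPM in AAV-GSTA4. Ndufa1, a small membrane subunit needed for assembly, was at 801, 523 and 143 CPM and at 346, 472, 554 and 540 CPM. For both genes the AAV-GFP group spanned the whole AAV-GSTA4 range, and without AAV-GFP replicate 3 the log2 fold changes moved from -0.13 to -0.48 and from -0.03 to -0.46. Ndufa4l2, a paralog of Ndufa4 induced by low oxygen, had 7, 25 and 6 counts in AAV-GFP and 13, 180, 6 and 15 in AAV-GSTA4, so its log2 fold change of 2.26 ± 1.25 (SE, adjusted p 0.493 in edgeR's test) rested on AAV-GSTA4 replicate 2 and was 0.01 without it. That library also held 128400 CPM of lens markers, against 3139 to 27140 CPM in the others, and the part of lens tissue in this value was not tested.

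Complex II, or succinate dehydrogenase, links the chain to the citric acid cycle. Sdha (chr13:74322254-74350280), its catalytic flavoprotein, was at 566, 621 and 468 CPM in AAV-GFP and at 679, 777, 705 and 722 CPM in AAV-GSTA4. The lowest AAV-GSTA4 library lay above the highest AAV-GFP library, and edgeR's test gave a log2 fold change of 0.39 ± 0.23 (SE) and an adjusted p of 0.526. The membrane anchor Sdhc was at 76.7, 102 and 75.5 CPM against 105, 98.1, 112 and 99.0 CPM, with an overlap of 1 AAV-GFP library. The iron-sulfur subunit Sdhb was at 409, 395 and 161 CPM against 310, 378, 410 and 491 CPM, and the anchor Sdhd at 392, 317 and 154 CPM against 310, 285, 346 and 386 CPM. Without AAV-GFP replicate 3, Sdha and Sdhc kept positive log2 fold changes (0.28 and 0.21), whereas Sdhb and Sdhd were at -0.01 and -0.09. The uniform direction of the complex was thus lost without that library. With the rod marker level described below as a covariate, Sdha and Sdhc were at 0.24 and 0.36, and Sdhb and Sdhd at -0.50 and -0.51.

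In complex III, 5 of 8 members were higher with all libraries and 2 of 8 without AAV-GFP replicate 3. Uqcrc1 (chr9:108936633-108949623), a large core protein on the matrix side, was at 310, 346 and 338 CPM in AAV-GFP and at 496, 335, 472 and 450 CPM in AAV-GSTA4. In 3 of 4 AAV-GSTA4 libraries it lay above all AAV-GFP libraries, with a log2 fold change of 0.40 ± 0.24 (SE) and an adjusted p of 0.507 in edgeR's test. Uqcrfs1, the Rieske iron-sulfur protein, had a log2 fold change of 0.18, and the small subunit Uqcrq one of 0.23, which became 0.01 and -0.02 without AAV-GFP replicate 3. Uqcrb, a small subunit next to the ubiquinone site, was at 526, 516 and 203 CPM against 306, 306, 410 and 372 CPM, a log2 fold change of -0.25 that was -0.58 without it. Uqcr11, the most abundant of the complex per length at 1181 CPM per kilobase, had a log2 fold change of 0.24 with that library and -0.11 without it.

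In complex IV, or cytochrome c oxidase, 5 of the 17 members tested were higher and 12 lower, and without AAV-GFP replicate 3 it was 3 and 14. Cox4i1, the largest nuclear subunit, was at 415, 592 and 325 CPM in AAV-GFP and at 474, 667, 603 and 565 CPM in AAV-GSTA4, a log2 fold change of 0.38 ± 0.28 (SE) that was 0.20 without AAV-GFP replicate 3. Cox6c, which lies at the edge of the complex, was at 426, 427 and 207 CPM and at 205, 244, 306 and 288 CPM, a log2 fold change of -0.44 ± 0.30 (SE) that was -0.71 without it. Both genes overlapped between groups, and their adjusted p-values were 0.603 and 0.575 in edgeR's test.

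Several complex IV subunits exist as isoforms made in different tissues, and levels per transcript length were set against the partner within each library. Cox8b, best known from heart and skeletal muscle, was abundant, at 38.2% to 89.8% of Cox8a. Cox7a1, a heart and muscle form, was at 4.86% to 9.52% of Cox7a2. Cox6b2, best known from testis, was at 2.67% to 8.30% of Cox6b1. The 3 ratios overlapped between groups, with means of 73.8% ± 23.2 against 65.2% ± 18.3 for Cox8b, 7.43% ± 2.17 against 6.33% ± 1.13 for Cox7a1, and 5.93% ± 2.92 against 5.77% ± 0.967 for Cox6b2 (SD, n = 3 AAV-GFP and 4 AAV-GSTA4).

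The other minor isoforms were rare. Cox6a2, the heart and muscle form, had 65, 192 and 21 counts in AAV-GFP and 64, 25, 25 and 15 in AAV-GSTA4, or 0.206% to 2.60% of Cox6a1 per length. Summed muscle markers in the same libraries were 102, 144 and 25.3 CPM in AAV-GFP and 145, 20.97, 61.9 and 25.9 CPM in AAV-GSTA4, and their part in the Cox6a2 value was not tested. Cox4i2, a form induced by low oxygen, was highest in AAV-GFP replicate 3 at 12.1 CPM and lay at 2.59 to 6.64 CPM elsewhere. Endothelial markers were also highest in that library, at 164.5 CPM against 33.9 to 54.3 CPM, and their part in it was not tested. Of the members too rare to test, Cox7b2 had 3 to 19 counts in a library and Cox8c, a testis form, had 0 in 4 libraries and 8 at most, where 3 counts correspond to 0.111 to 0.176 CPM. The second Atp5o row had no count in any library.

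**Figure D2:**
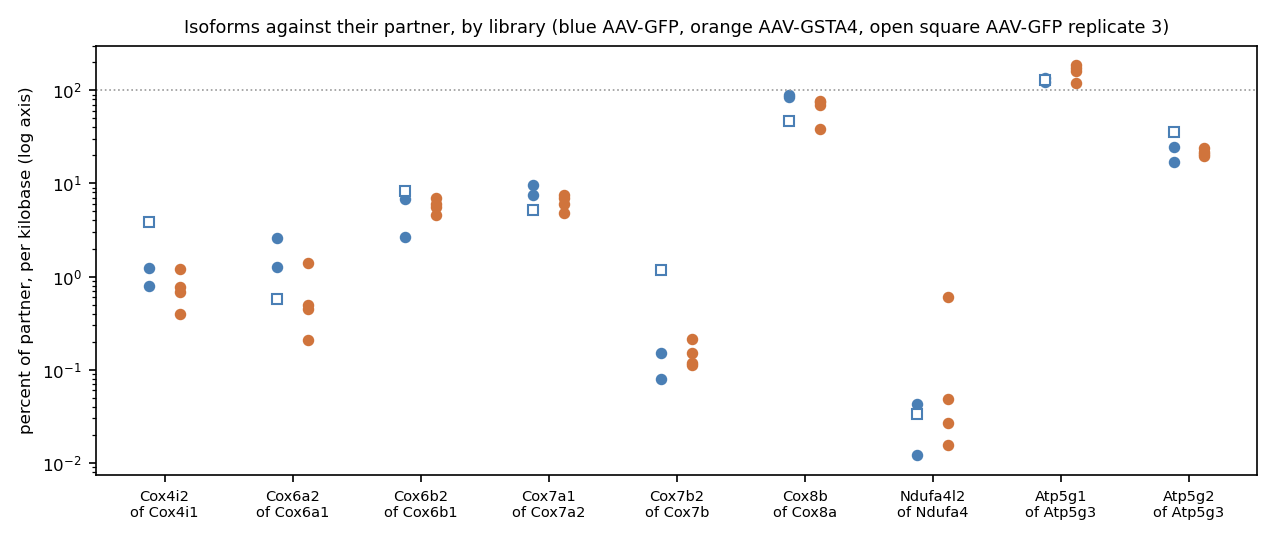
Level of each isoform as a percentage of its partner, per kilobase of transcript (log axis), in every library (blue AAV-GFP, orange AAV-GSTA4, open square AAV-GFP replicate 3). Cox8b and Atp5g1 approach or pass the level of their partners, while Cox4i2, Cox6a2 and Ndufa4l2 stay below 4% in all libraries.

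In complex V, or ATP synthase, 6 of 17 members tested were higher (3 without AAV-GFP replicate 3), and the log2 fold changes spanned only -0.22 to 0.23. Atp5a1, the alpha subunit of the catalytic F1 head, was at 725, 715 and 629 CPM in AAV-GFP and at 810, 729, 873 and 820 CPM in AAV-GSTA4. Its groups were separate by a narrow margin, and its log2 fold change of 0.23 ± 0.23 (SE) had an adjusted p of 0.718 in edgeR's test and became -0.06 with library totals. Atp5b, the beta subunit that carries the catalytic sites, was at 1001, 1161 and 1215 CPM against 1225, 1239, 1211 and 1015 CPM. Atp5g2, 1 of 3 genes for an identical mature subunit c, was at 35.6, 46.1 and 37.1 CPM against 32.6, 35.0, 34.3 and 33.7 CPM, a log2 fold change of -0.22 ± 0.19 (SE). It was the scarcest of the 3: per length Atp5g2 stood at 16.9% to 35.5% of Atp5g3, and Atp5g1 at 120% to 187%.

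**Figure D3:**
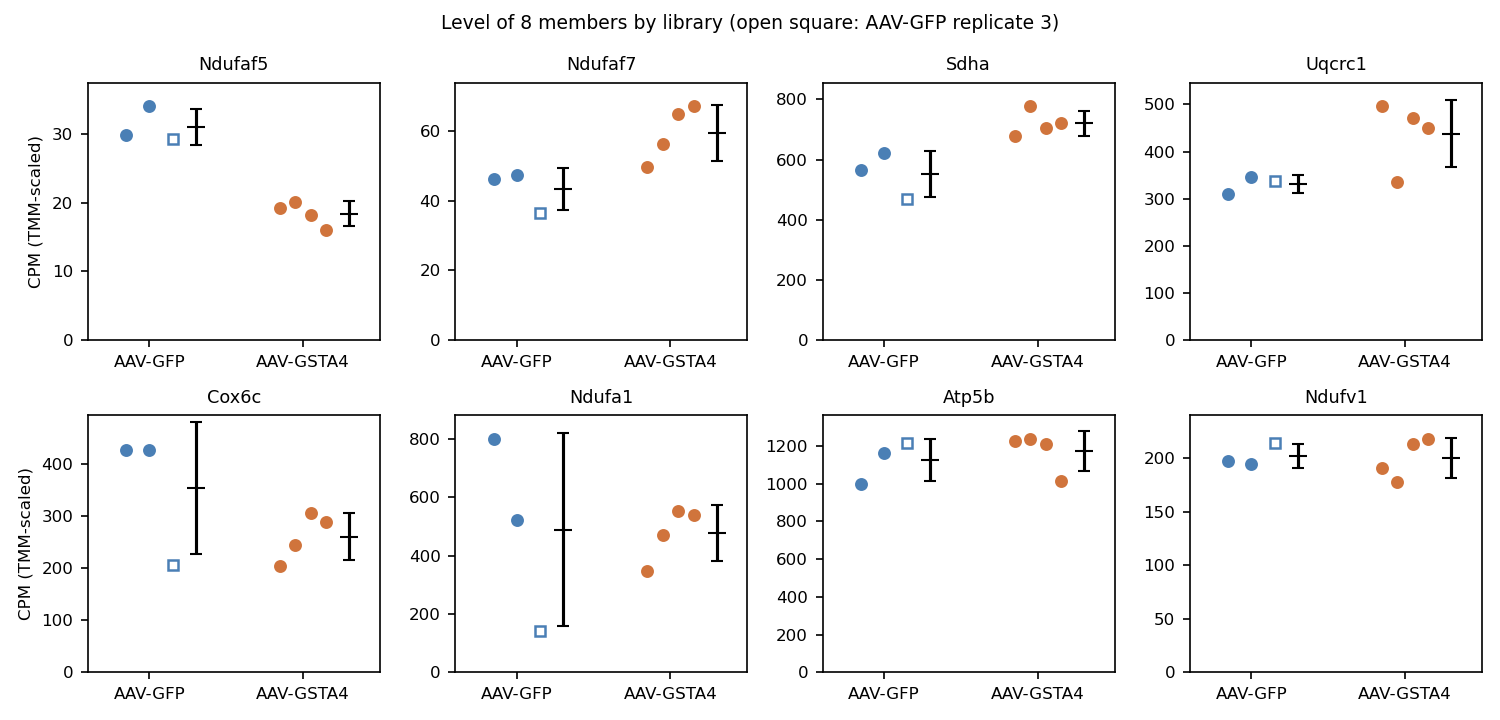
TMM-scaled CPM (vertical axes, from 0) of 8 members in each library, with mean and SD as black marks and AAV-GFP replicate 3 as an open square. Ndufaf5, Ndufaf7 and Sdha show no overlap between groups, while Ndufa1 and Cox6c are spread by the low value of AAV-GFP replicate 3.

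AAV-GFP replicate 3 was the low library for most members. It was the lowest of the 7 for 75 of the 93 members (80.6%), where it was the lowest for 29.4% of all genes tested. These levels are TMM-scaled, and the TMM factor of this library was 1.36, against 0.868 to 1.05 in the others. As an unscaled share of counts, it was not the lowest for complex V (0.606% against 0.579% and 0.549% in AAV-GSTA4 replicates 1 and 2). Nor was it for complex III (0.201% against 0.197% in AAV-GSTA4 replicate 2). It was still the lowest for complexes I, II and IV. Set against the mean of AAV-GFP replicates 1 and 2, the median TMM-scaled level of AAV-GFP replicate 3 was 47.7% over the members and 101% over all genes. The shortfall was unequal between roles: the median was 81.2% for the complex I core, 60.3% for its assembly factors and 42.8% for its accessory subunits, and within complex V it was 87.4% for the F1 head, 53.6% for the subunit c genes and 40.6% for the peripheral stalk. Atp5b (112%), Ndufv1 (110%), Uqcrc1 (103%) and Atp5d (99.4%) were not low in that library, while Cox6a2 (19.3%), Ndufa1 (21.6%) and Cox7a1 (25.4%) were the lowest of the members tested.

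Shorter transcripts tended to be lower in that library. Over the 93 members the log2 ratio of AAV-GFP replicate 3 to the other AAV-GFP libraries had r = 0.441 and rho = 0.488 with log transcript length, a description across genes that share the same libraries and are not independent replicates. Over 15054 genes with a length the values were 0.230 and 0.256. Most members are short: 64 of the 96 rows have a transcript under 1000 bases. Of the 61 short members tested, 51 (83.6%) were lowest in AAV-GFP replicate 3, where 52.5% of all genes of that length were. The 32 longer members were low there too, with a median log2 ratio of -0.74 against 0.07 for the 13950 genes of that length.

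**Figure D4:**
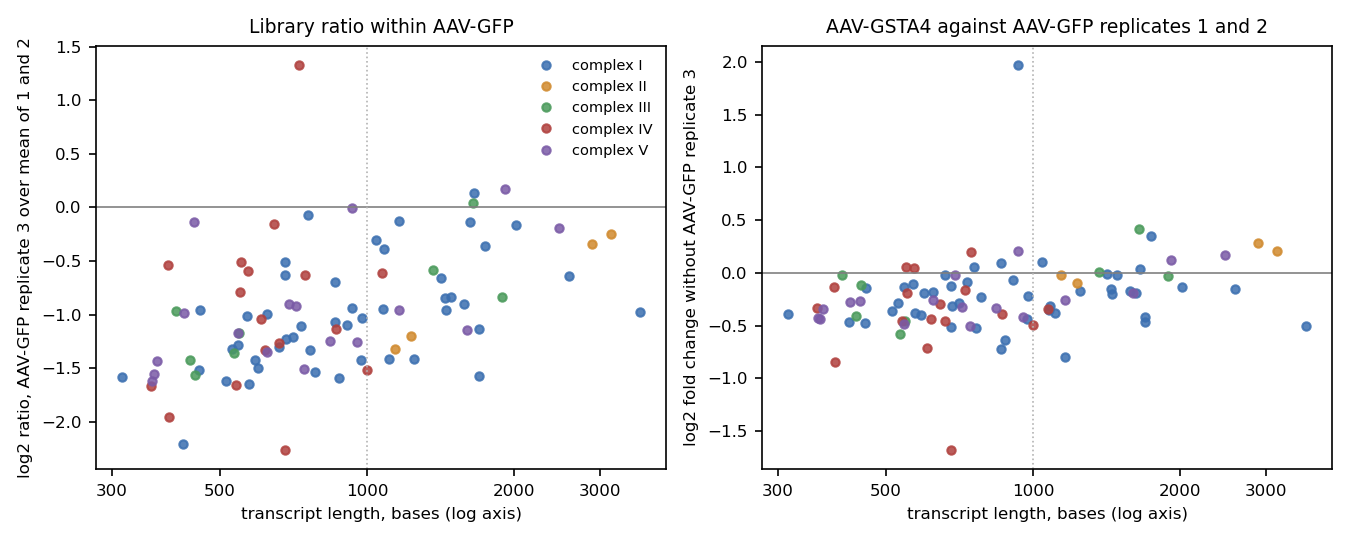
Log2 ratio of AAV-GFP replicate 3 to the mean of AAV-GFP replicates 1 and 2 (left) and log2 fold change without AAV-GFP replicate 3 (right) against transcript length in bases (log axis), 1 point per member tested, coloured by complex. Most points on both sides of the dotted line at 1000 bases lie below 0 in both panels. The medians are -1.23 (left) and -0.31 (right) for the short members and -0.74 and -0.16 for the longer ones.

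With AAV-GFP replicate 3 left out, the members as a group shifted down. Of the 93, 77 were then lower and 16 higher, and the median log2 fold change was -0.25, against 0.01 for all genes and -0.24 for the 1104 genes tested with a transcript under 1000 bases. Among the members themselves the median log2 fold change was -0.31 for the short and -0.16 for the longer ones. For the 13950 genes tested of 1000 bases or more it was 0.03. In edgeR's test 0 of 15337 genes (0%) and 0 members passed. At an unadjusted p under 0.05, 0 members were higher and 10 lower (10.8%), where 6.76% of all genes were higher and 5.74% lower. The share lower was 12.7% among all genes with transcripts under 1000 bases and 13.1% (8 of 61) among the short members. The short members' share was thus near that of all short genes. The AAV-GSTA4 libraries all lay below both AAV-GFP libraries for 24 members (25.8%), against 11.8% of all genes. For short transcripts it was 20 of 61 members (32.8%) against 24.7% of genes. AAV-GFP replicate 1, kept in this fit, was the highest library for 41 of the 93 members (44.1%) and for 2266 of 15075 genes tested. Less the median of all genes, the members' median was -0.26 without AAV-GFP replicate 3. It was 0.28 without AAV-GFP replicate 1 and 0.21 without AAV-GFP replicate 2. The sign thus depended on which AAV-GFP library was left out.

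The 10 genes lower at an unadjusted p under 0.05 in edgeR's test without AAV-GFP replicate 3 fall in 4 complexes. They are the assembly factors Ndufaf2, Ndufaf4 and Ndufaf5 and the accessory subunits Ndufa5 and Ndufb1-ps of complex I, Uqcrb of complex III, Cox6a2, Cox6c and Cox7a1 of complex IV, and Atp5l of complex V. Ndufb1-ps, the mouse counterpart of subunit B1 despite its pseudogene name, was at 142 and 127 CPM in the first and second AAV-GFP libraries and at 67.9, 77.3, 97.1 and 83.1 CPM in AAV-GSTA4, a log2 fold change of -0.72 in this fit. The largest of the 10 were Cox6a2 at -1.68, Cox7a1 at -0.84 and Ndufaf5 at -0.80, and the lowest adjusted p of the 10 in edgeR's test was 0.313. The 16 members with positive log2 fold changes in this fit included Uqcrc1 (0.42), Sdha (0.28), Atp5a1 (0.17) and Atp5b (0.12). By complex the medians without this library were -0.20 for I, 0.10 for II, -0.07 for III, -0.34 for IV and -0.28 for V.

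**Figure D5:**
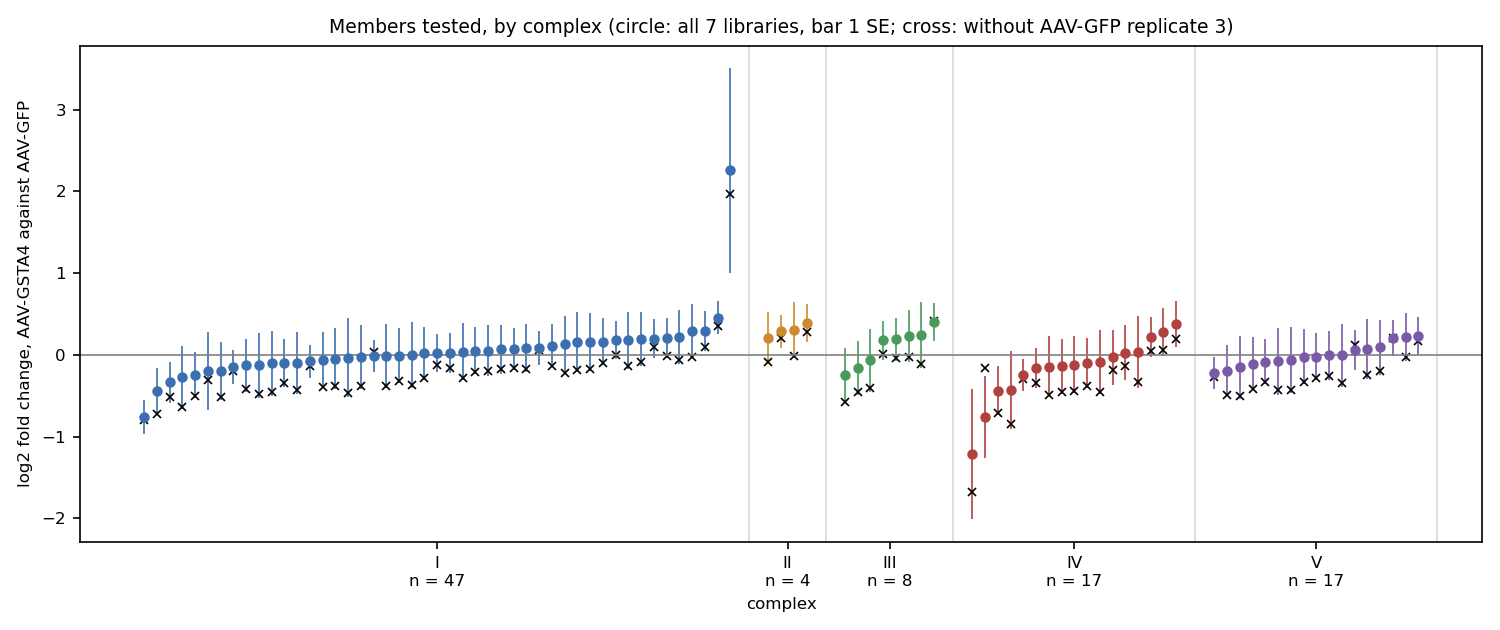
Log2 fold change (AAV-GSTA4 over AAV-GFP, vertical axis) for each of the 93 members tested, ordered within its complex, with all 7 libraries (circles, bars 1 SE) and without AAV-GFP replicate 3 (crosses). With all libraries 46 members lie above 0 and 47 below, and without that library 77 lie below.

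Summed rod markers were lower in AAV-GSTA4, by a narrow margin against AAV-GFP replicate 1. They were at 19040, 31380 and 48230 CPM in AAV-GFP and at 17820, 15030, 16920 and 10250 CPM in AAV-GSTA4. Of the 20 markers 19 were lower and 1 higher, where 44.6% of all genes were higher, and none was at 0 in any library. RPE markers were at 72620, 57780 and 23760 CPM in AAV-GFP and at 82850, 63160, 112400 and 92790 CPM in AAV-GSTA4. With the rod marker level as a covariate, the members' median log2 fold change was -0.59, against 0.02 for all genes, and 13 members were lower at an unadjusted p under 0.05 (14.0%, where 5.25% of all genes were) and 0 members higher (3.04% of all genes). After adjustment in edgeR's test 0 members and 0.00663% of all genes, a single gene, passed. The rod level did not overlap between the groups, so rod content and treatment cannot be told apart in these libraries.

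The 13 subunits encoded in mitochondrial DNA all had log2 fold changes below 0, with a median of -0.44 and 0 at an unadjusted p under 0.05. They took 4.17%, 3.96% and 1.85% of counts in AAV-GFP and 2.12%, 2.39%, 2.39% and 1.89% in AAV-GSTA4. Here too AAV-GFP replicate 3 was the low library of its group. Without it 11 of the 13 were lower at an unadjusted p under 0.05, where 5.74% of all genes and 12.7% of those with short transcripts were. The smallest adjusted p of the 13 was then 0.313 in edgeR's test. The 13 genes share the same libraries and are not independent replicates. With the rod marker level as a covariate, 0 of the 13 were lower at an unadjusted p under 0.05, at a median of -0.89. The mitochondrial cytochrome b gene mt-Cytb, for example, was at 14830, 13060 and 5004 CPM against 7681, 10160, 9396 and 7176 CPM.

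Assembly factors outside the symbol rule were taken from a list. Of 41 listed, 38 were tested, of which 20 were higher and 18 lower, with a median of 0.03 on the log2 scale and 1 in each direction at an unadjusted p under 0.05, where 5.27% of all genes were higher and 6.63% lower. Sdhaf1, which helps insert iron-sulfur clusters into Sdhb, was at 5.69, 7.07 and 11.0 CPM in AAV-GFP and at 3.58, 2.93, 1.18 and 1.51 CPM in AAV-GSTA4, a log2 fold change of -1.78 ± 0.50 (SE) with an adjusted p of 0.363 in edgeR's test. Bcs1l, a chaperone that inserts the Rieske protein into complex III, was at 11.7, 12.4 and 8.98 CPM against 17.3, 21.1, 14.0 and 16.2 CPM, a log2 fold change of 0.63 ± 0.27 (SE) with an adjusted p of 0.404 in edgeR's test. The groups did not overlap for either gene, as for 12.0% of all genes. Coa5 and Cox15, both needed for complex IV, had log2 fold changes of 0.51 and 0.52.

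Among 14 transcriptional regulators of respiration, 3 were higher and 11 lower, with 1 and 3 of them at an unadjusted p under 0.05. Over all genes 44.6% were higher, and 5.27% were higher and 6.63% lower at that p. Gabpa, the DNA-binding subunit of the ETS-family factor that serves many respiratory genes, was at 39.7, 40.4 and 38.8 CPM in AAV-GFP and at 56.3, 57.6, 54.6 and 45.3 CPM in AAV-GSTA4, a log2 fold change of 0.43 ± 0.19 (SE). Esrrg, an oestrogen-related receptor, was at 31.0, 33.4 and 60.5 CPM against 27.4, 26.8, 15.5 and 14.2 CPM, a log2 fold change of -0.99 ± 0.34 (SE), and Esrrb and Ppargc1b had values of -1.39 and -1.22. AAV-GFP replicate 3 was the highest library for Esrrg, Esrrb and Ppargc1b, and without it 0 of the 14 had an unadjusted p under 0.05. The coactivator Ppargc1a was at 73.1, 77.6 and 58.0 CPM against 82.8, 82.8, 108.5 and 95.6 CPM. Of the remaining chain genes, cytochrome c, cytochrome c1 and the electron transfer flavoproteins, 4 of 5 were higher and 0 had an unadjusted p under 0.05.

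Many respiratory genes are known to share promoter elements, so the RefSeq promoter windows (GRCm38.p6, 250 bases before to 50 after the start) were searched on both strands for the NRF1 motif, taken as GCGCA, any base and GCGC in a row. Windows were found for 76 of the members. The motif stood in 20 of 81 member windows (24.7%), where 6.38% of 21262 windows of protein-coding genes held it. Member windows were also richer in CpG, with a median of 20 per 300 bases against 13, and the part of base composition in the motif's share was not tested. It was found for 9 of 40 genes of complex I, 2 of 3 of complex II, 1 of 5 of complex III, 1 of 13 of complex IV and 6 of 15 of complex V. The ETS motif CCGGAAG stood in 23.5% against 11.6%, the YY1 motif AANATGGCG in 13.6% against 3.12%, the oestrogen-related receptor motif AAGGTCA in 9.88% against 4.08%, and the GC box GGGCGG in 44.4% against 46.2%. A match is a description of letters and not of binding.

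The 150 bases before the start are shown for 4 members, to show how such matches lie in 3 complexes, with each NRF1 match in capitals and all 4 genes on the minus strand. The windows are chr13:74350241-74350390 for Sdha, chr9:50603850-50603999 for Sdhd, chr16:37654369-37654518 for Ndufb4 and chr2:10080433-10080582 for Atp5c1.
Sdha: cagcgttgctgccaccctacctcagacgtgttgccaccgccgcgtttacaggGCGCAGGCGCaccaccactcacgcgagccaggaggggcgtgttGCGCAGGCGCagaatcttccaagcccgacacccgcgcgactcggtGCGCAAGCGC
Sdhd: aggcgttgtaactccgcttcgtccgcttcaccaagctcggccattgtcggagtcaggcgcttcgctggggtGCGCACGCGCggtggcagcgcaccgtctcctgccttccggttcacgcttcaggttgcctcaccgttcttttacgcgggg
Ndufb4: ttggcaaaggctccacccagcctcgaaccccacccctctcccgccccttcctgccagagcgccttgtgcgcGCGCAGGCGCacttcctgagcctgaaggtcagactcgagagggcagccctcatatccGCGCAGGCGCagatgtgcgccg
Atp5c1: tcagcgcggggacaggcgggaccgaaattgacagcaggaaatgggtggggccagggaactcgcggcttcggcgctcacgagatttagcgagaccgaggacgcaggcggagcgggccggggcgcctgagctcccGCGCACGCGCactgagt

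Sdha holds 3 matches in this stretch, Ndufb4 holds 2 (of 3 in its window), and Sdhd and Atp5c1 hold 1 each. Atp5c1 has another start, whose window (chr2:10080461-10080760) holds 0 matches. The median log2 fold change was -0.01 for the 19 genes with a match and 0.00 for the 56 tested without one, and without AAV-GFP replicate 3 it was -0.26 and -0.25. Ndufb4 and Atp5c1 had log2 fold changes of -0.10 and -0.01, beside 0.39 for Sdha and 0.21 for Sdhd.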

How the data were processed

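The authors deposited 1 table of raw read counts per gene symbol and library. Per the submitters' processing notes, STAR 2.7.1a and featureCounts 1.6.2 were used, and GRCh38 (hg38) and GRCm38 (mm10) are named. The annotation release, strand setting and rule for multi-mapping reads are not given in the sources used here. Respiratory genes have many processed pseudogene copies, so their counts depend on that rule. Per the labels' protocols, polyadenylated RNA was amplified as full-length cDNA (SMART-Seq v4) and fragmented with a transposase (Nextera XT). No molecular identifiers are mentioned, so intervals and floors cover counting error only.

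Columns were assigned through the library names in the labels, and replicates are numbered by sample title. No libraries agreed within sampling noise (chi-square per gene at least 57.5 over 21 pairs). Totals of 15329181 to 28998964 counts put 3 counts at 0.111 to 0.176 CPM.

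AAV-GSTA4 was compared with AAV-GFP over all genes with edgeR 4.0.16 (R 4.3.3): quasi-likelihood F-test, robust dispersion, TMM scaling, the default expression filter, group as the only factor and Benjamini-Hochberg adjustment at 0.05. The biological coefficient of variation was 48.2%. No test was made over the members. Lengths are of the GENCODE M21 principal transcript, and gene positions are from that annotation. Promoters are from RefSeq, GRCm38.p6. The test was tried on simulated counts with known changes. As alternatives, library totals, median-of-ratios scaling, no filter, DESeq2 1.42.0 and limma-voom with library quality weights (limma 3.58.1, called limma-voom below) were used. Each library left out, a replicate block, and covariates for rod markers and Y-linked genes were also used.

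The members and lists were chosen with earlier results of these data known. Members named were the smallest p-values per complex and role, the most abundant per length, the isoform pairs, complex II and the members not tested. Up to 4 genes of each outside list were named likewise. Ndufs7, Ndufa5, Ndufaf4, Atp5l, Ndufb4, Atp5c1, Ppargc1a and mt-Cytb were chosen after their values were seen. Results for some single genes are left out.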

Additional observations from a re-analysis of the deposited data

Results flagged for a closer look

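Of 63 results examined for a library far from the rest of its group, 4 were found, all among the 4 AAV-GSTA4 libraries, where chance gives about 1 in 20 groups. Ndufa4l2 was at 8.64 CPM in replicate 2, with 0.960 of the group's range between it and the next library. Atp5b was low in replicate 4 at 1015 CPM, with a gap of 0.872 of the range. Atp5c1, the gamma subunit of ATP synthase, was low in replicate 1 at 398.5 CPM, with a gap of 0.857. Complex II took 0.159% of the counts of replicate 4, against 0.135% to 0.139% in the other replicates, a gap of 0.845. No limit for the smaller AAV-GFP group is given, so these results do not show that AAV-GFP lacked a far library. Cox6c, for example, was at 426, 427 and 207 CPM in the AAV-GFP libraries.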

How the results depend on the processing

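The count of members past the adjusted threshold was 0 in every fit run. The count of genes called over all genes was 202 with DESeq2 and 1 with the rod covariate, and from 0 to 1 with each library left out (1 without AAV-GSTA4 replicate 3). The members higher at an unadjusted p under 0.05 numbered 1 with median-of-ratios scaling, 2 with DESeq2 and 2 with limma-voom, and from 0 to 1 with each library left out. The members lower numbered 7 with library totals, 13 with the rod covariate and 5 with limma-voom and its library quality weights. They numbered from 1 to 10 with each library left out, where 10 is the value without AAV-GFP replicate 3. The causes of these differences were not tested.

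Less the median of all genes, the median log2 fold change with the rod covariate was -0.61 over the members. By complex it was -0.59 in I, -0.15 in II, -0.51 in III, -0.70 in IV and -0.64 in V. With each library left out it ranged from -0.26 to 0.28 over the members, -0.20 to 0.29 in complex I, 0.09 to 0.55 in II, -0.08 to 0.40 in III, -0.34 to 0.15 in IV and -0.28 to 0.27 in V.

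A replicate block was fitted for each numbering, although same-numbered libraries did not deviate together (correlations of -0.089 to 0.009 by title and -0.128 to 0.0146 by library name). Either replicate block gave 1 gene called, and the block by title gave 0 members lower. Log2 fold changes that reversed under the title block were Ndufa1 0.16, Cox6b2 0.076 and Cox8b -0.0054. Under the library-name block they were Ndufv1 0.038, Ndufa1 0.24, Ndufa4 0.087, Cox6b1 0.051, Cox6b2 0.18, Cox7a2 0.0066, Cox7b 0.081, Atp5mpl 0.22, Ndufb4 0.098 and Atp5c1 0.0065.

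Other single genes changed sign without passing the adjusted threshold in any fit. With median-of-ratios scaling, no filter and DESeq2, Ndufv1 was at 0.0062, 0.014 and 0.0074 and Atp5c1 at 0.011, 0.014 and 0.011, and Ndufv1 was at 0.075 with limma-voom. With library totals Ndufs3 was at -0.096, Ndufs7 -0.22, Sdhc -0.0065, Sdhd -0.025, Uqcrfs1 -0.082, Uqcrq -0.020, Cox6a1 -0.058, Cox8b -0.19, Atp5a1 -0.064, Atp5b -0.26, Atp5d -0.099 and Atp5g1 -0.031. With the rod covariate Ndufs3 was at -0.010, Ndufa8 -0.10, Sdhb -0.50, Sdhd -0.51, Uqcrfs1 -0.13, Uqcrq -0.29, Uqcr11 -0.62, Cox6b2 0.24, Cox8b -0.71, Atp5g1 -0.33 and Esrrb 0.22. With the Y-linked covariate Cox6b2 was at 0.033 and Cox8b at -0.11, and Cox8b was at -0.19 with limma-voom.

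With each library left out in turn, these genes took both signs: Ndufa1 -0.46 to 0.52, Ndufa4 -0.48 to 0.19, Ndufa5 -0.64 to 0.086, Ndufaf4 -0.50 to 0.085, Ndufb4 -0.43 to 0.23, Ndufv1 -0.035 to 0.052, Sdhb -0.015 to 0.52, Sdhd -0.092 to 0.50, Uqcrq -0.023 to 0.44, Uqcr11 -0.11 to 0.50, Cox6b1 -0.44 to 0.085, Cox6b2 -0.27 to 0.48, Cox7a2 -0.45 to 0.12, Cox7b -0.50 to 0.21, Cox8b -0.34 to 0.39, Atp5b -0.013 to 0.15, Atp5c1 -0.26 to 0.21, Atp5g1 -0.023 to 0.37, Atp5g3 -0.33 to 0.12, Atp5l -0.49 to 0.042 and Atp5mpl -0.43 to 0.34. Ndufa4l2 was at 0.01 without AAV-GSTA4 replicate 2. Ndufaf5 ranged from -0.80 to -0.67 over these fits and from -1.05 to -0.66 over the other alternatives, with adjusted p-values from 0.0589 to 0.865. Groups of 3 and 4 libraries, a coefficient of variation of 48.2% and 1 library that stands apart limit what could be detected, and depth limits only the rarest isoforms.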
